A study of Mus musculus with 6 samples.

Results

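Plasmacytoid dendritic cell (DC) marker genes were described across the 6 arrays of a mouse study that measured conventional DCs on Affymetrix 3′ microarrays. The 9 genes, Klk1, Ccr9, Tcf4, Spib, Ly6d, Pacsin1, Cox6a2, Tex2 and Pld4, were taken as a list of symbols, and each was read from its brightest probe set with a single symbol. All 9 were found among 12394 genes, and the list was chosen with earlier results of these data known. The first group, 3 arrays, is labelled as conventional CD11c-positive DCs sorted from spleen of BALB/c mice, an inbred strain. The second group, also 3 arrays, carries the same description for lymph node. No treatment or genetic change is named for either group, the age of the animals is not stated, and nothing says whether an array stands for 1 animal or a pool, so p-values rest on the variation among arrays alone, part of which may be technical.

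Plasmacytoid DCs are round lymphoid-looking cells that sense nucleic acids through endosomal Toll-like receptors and release large amounts of type I interferon. Their identity depends on the E protein encoded by Tcf4, with Spib and other factors acting beside it, and is opposed by Id proteins. In the mouse they carry CD11c at a lower level than conventional DCs, and a gate on CD11c alone may include them. In spleen and lymph node they are a minority of the DCs.

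Before the results, the labels and arrays were checked. Ccr7, the receptor that leads mature DCs into lymph nodes, was higher in the arrays labelled spleen (10.78, 10.69 and 9.69 log2 intensity) than in the arrays labelled lymph node (9.12, 8.58 and 9.06; limma p of 0.0496 after Benjamini-Hochberg adjustment over all genes, called adjusted p from here on). Ccl22, a chemokine of mature migratory DCs, stood at 9.37, 9.26 and 9.38 in the arrays labelled spleen, against 4.04, 4.56 and 4.49 in those labelled lymph node, and was chosen after its values were seen. Both go against textbook knowledge of the organs, so the groups are called by their labels, spleen arrays and lymph node arrays for short, and a positive difference means a higher level in spleen arrays as labelled. All 9 conventional DC markers examined had a value on every array, as every probe set does, which does not show that they were expressed. Itgax, which encodes CD11c, was 9.74 to 10.17 in the arrays labelled spleen and 10.85 to 10.97 in those labelled lymph node. Array medians lay between 39.4 and 41.3 intensity units. The array numbered 3 stood apart from the other two for the marker genes in both organs, as described below, and results are given with and without both arrays numbered 3.

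Promoter sequences are shown for the 2 genes past the significance threshold, Klk1 and Ccr9, and for Spib and Pacsin1, the 2 genes with the most similar profiles over the arrays. The windows run from 250 bases before to 50 bases after a RefSeq transcript start in GRCm38.p6. They lie at chr7:44225110-44225409 on the plus strand (Klk1), chr9:123766961-123767260 on the plus strand (Ccr9), chr7:44532022-44532321 on the minus strand (Spib) and chr17:27684989-27685288 on the plus strand (Pacsin1). Capitals mark CANNTG, the E-box that E proteins such as the Tcf4 product bind. GAGGAA, an Ets-type core of the kind bound by the Spib product, was searched on both strands as well and was not found in these 4 windows.
Klk1: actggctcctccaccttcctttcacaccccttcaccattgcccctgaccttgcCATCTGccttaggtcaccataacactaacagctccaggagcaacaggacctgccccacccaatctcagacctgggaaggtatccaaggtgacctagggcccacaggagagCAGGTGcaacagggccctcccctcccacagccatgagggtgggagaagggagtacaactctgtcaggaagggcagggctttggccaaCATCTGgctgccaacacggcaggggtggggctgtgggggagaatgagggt
Ccr9: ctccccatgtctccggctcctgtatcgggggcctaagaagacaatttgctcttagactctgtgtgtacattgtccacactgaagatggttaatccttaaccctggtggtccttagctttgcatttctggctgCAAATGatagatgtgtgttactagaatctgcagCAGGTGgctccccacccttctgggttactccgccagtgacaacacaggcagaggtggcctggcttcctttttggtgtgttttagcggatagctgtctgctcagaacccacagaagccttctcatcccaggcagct
Spib: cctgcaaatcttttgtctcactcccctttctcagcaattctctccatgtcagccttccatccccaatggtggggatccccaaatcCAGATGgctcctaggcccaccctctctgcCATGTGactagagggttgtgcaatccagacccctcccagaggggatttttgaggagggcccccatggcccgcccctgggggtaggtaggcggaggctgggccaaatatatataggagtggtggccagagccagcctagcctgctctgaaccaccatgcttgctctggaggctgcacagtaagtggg
Pacsin1: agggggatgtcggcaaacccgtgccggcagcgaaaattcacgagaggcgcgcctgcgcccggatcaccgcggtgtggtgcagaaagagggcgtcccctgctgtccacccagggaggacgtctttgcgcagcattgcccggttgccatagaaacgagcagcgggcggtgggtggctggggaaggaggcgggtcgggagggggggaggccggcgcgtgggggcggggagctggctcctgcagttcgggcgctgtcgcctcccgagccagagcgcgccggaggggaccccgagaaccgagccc

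Windows of 6 of the 9 genes were searched, those of Tex2 and Pld4 besides these 4. CANNTG was present in 4 of these 6 windows and in 72.3% of 32851 promoter windows of the same length. The form CAGGTG (or CACCTG on the other strand), which is one case of CANNTG, was present in 2 of 6, Klk1 and Ccr9, and in 20.2% of all windows. It began at position -87 from the transcript start in Klk1 and at -85 in Ccr9. CAGCTG and CACGTG, also cases of CANNTG, were in 0 of the 6 windows and in 16.3% and 7.15% of all windows. GAGGAA was in 1 of 6, Pld4, and in 28.3% of all windows. These are counts of letters in short windows and say nothing about binding.

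The main comparison asked how the 9 genes differed between conventional DCs of the spleen and of the lymph node. Klk1 and Ccr9 were higher in spleen arrays, 16.6-fold and 6.92-fold. Tex2, Pacsin1, Spib, Tcf4, Cox6a2 and Ly6d had positive log2 differences, between 0.48 and 2.12, that did not pass the threshold, and Pld4 had a negative one. In total 2 of 9 genes were called higher and 0 lower at an adjusted p of 0.05 over all genes, while 3.4% of all 12394 genes were called, 2.03% higher and 1.37% lower. The median log2 difference of the 9 genes was 1.94, beside -0.005 over all genes. In 7 of the 9 genes the 3 spleen arrays all lay above the 3 lymph node arrays, which held for 11.8% of all genes. The genes were chosen with earlier results of these data known, so setting them beside all genes is no test of an excess. Because these are bulk samples, more plasmacytoid DCs among the sorted cells and more of these RNAs per cell cannot be told apart.

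**Figure D1:**
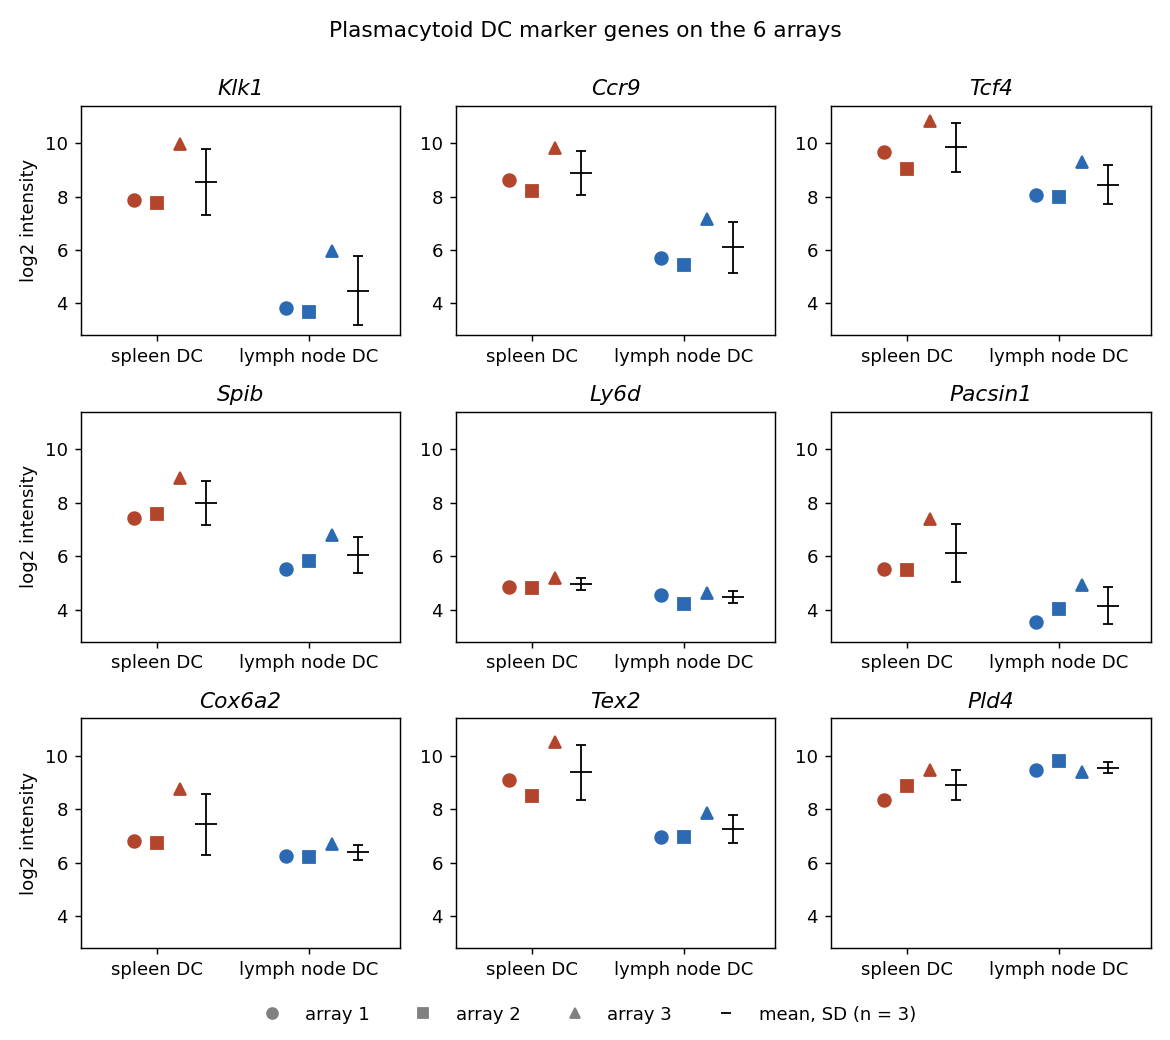
Log2 intensity of the 9 plasmacytoid DC marker genes on each of the 6 arrays (circles, squares and triangles are the arrays numbered 1, 2 and 3), with the mean and SD of each group (n = 3) in black. The array numbered 3 is the highest of its group in every panel except Pld4 in lymph node, and the groups overlap only for Tcf4 and Pld4.

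Klk1 encodes tissue kallikrein, a secreted serine protease, and is a marker of mouse plasmacytoid DCs. Its probe set 1415837_at read 7.88, 7.75 and 9.97 log2 intensity in spleen arrays, against 3.81, 3.66 and 5.97 in lymph node arrays. On the deposited linear scale these were 235.6, 215.9 and 1002.2 units in spleen arrays, against 14.0, 12.6 and 62.7 units in lymph node arrays. The groups did not overlap, and within each organ the array numbered 3 was at least 2 log2 units above both others. The log2 difference was 4.06 ± 0.76 (SE, adjusted p = 0.0351), with means of 8.53 ± 1.24 in spleen arrays and 4.48 ± 1.29 in lymph node arrays (SD, n = 3 each).

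The low values of Klk1 in lymph node arrays limit the size of that fold. With log2 of the value plus 16 the difference was 3.26 (adjusted p = 0.0723). A second Klk1 probe set, 1448107_x_at, read 7.70, 7.51 and 9.75 in spleen arrays, against 3.19, 3.85 and 6.12 in lymph node arrays, and missed the threshold over all probe sets (adjusted p = 0.0564). The third, 1455977_x_at, read 4.92, 4.32 and 5.85 in spleen arrays, against 4.83, 3.46 and 2.66 in lymph node arrays, with overlapping groups. Klk1 belongs to a cluster of closely related kallikrein genes, and probe sets of such genes may share signal. Of the 8 Klk1b genes measured, Klk1b27 read 9.54, 8.36 and 10.66 in spleen arrays, against 7.62, 7.84 and 7.41 in lymph node arrays (difference 1.90 ± 0.51 SE, adjusted p = 0.0893). The other Klk1b genes differed by -0.16 to 0.58, none past the threshold. Unlike Klk1, Klk1b27 was not highest in lymph node array 3.

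Ccr9 encodes the receptor for the chemokine Ccl25, which guides lymphocytes to the gut and thymus and is also carried by mature plasmacytoid DCs. It read 8.62, 8.20 and 9.82 log2 intensity in spleen arrays (probe set 1421920_a_at), against 5.69, 5.42 and 7.17 in lymph node arrays. The groups were separate, and again the array numbered 3 was highest in each. The log2 difference was 2.79 ± 0.54 (SE, adjusted p = 0.0385). All 3 Ccr9 probe sets had groups that did not overlap. Probe set 1427419_x_at showed the largest gap of the 3, 8.26, 7.49 and 8.73 in spleen arrays, against 3.50, 4.05 and 5.47 in lymph node arrays (14.1-fold, adjusted p = 0.0149 over probe sets), and 1421919_a_at differed 7.52-fold (adjusted p = 0.0703).

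Over the 19 probe sets of the 9 genes, 3 were called in a fit across all 22626 probe sets, of which 2.78% were called. They were 1 of Klk1 and 2 of Ccr9, and 18 of the 19 had a positive difference.

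The calls on Klk1 and Ccr9 depended on single arrays. Neither passed without spleen array 1, lymph node array 1 or lymph node array 2, and Ccr9 also did not pass without spleen array 3. The Klk1 difference lay between 3.34 and 4.80 over the 6 fits with 1 array left out (adjusted p 0.0225 to 0.147), and that of Ccr9 between 2.32 and 3.33 (0.0237 to 0.159).

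Tcf4 and Spib encode the transcription factors of the list. Tcf4, the E protein required for plasmacytoid DC development, read 9.65, 9.04 and 10.83 log2 intensity in spleen arrays and 8.05, 8.0 and 9.29 in lymph node arrays (probe set 1416723_at). Lymph node array 3 was above spleen array 2, so the groups overlapped. The difference of 1.39 (95% interval 0.22 to 2.56) did not pass (adjusted p = 0.186). All 6 Tcf4 probe sets had a positive difference, from 0.29 to 1.70, and 0 passed over all probe sets. Of them, 1416725_at read 2.00 to 2.51 over the 6 arrays, within the 1.63 to 2.77 of the trpn probe sets, bacterial controls that stayed at the bottom of the scale.

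Spib, an Ets factor of B cells and plasmacytoid DCs, read 7.44, 7.60 and 8.95 in spleen arrays, against 5.53, 5.83 and 6.81 in lymph node arrays (probe set 1460407_at). Its groups did not overlap, and the difference of 1.94 (95% interval 0.86 to 3.02) missed the threshold (adjusted p = 0.0668).

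Pacsin1 and Tex2 had differences of similar size. Pacsin1, which encodes an adaptor of membrane curvature and endocytosis and takes part in the interferon response of plasmacytoid DCs, read 5.53, 5.48 and 7.38 in spleen arrays, against 3.52, 4.02 and 4.92 in lymph node arrays (probe set 1449381_a_at). Its difference was 1.97 (95% interval 0.69 to 3.26, adjusted p = 0.103). Its second probe set differed by 2.36. Tex2, a lipid-binding protein gene first named from testis, read 9.10, 8.51 and 10.53 in spleen arrays, against 6.95, 6.97 and 7.86 in lymph node arrays (probe set 1452213_at, difference 2.12, 95% interval 0.96 to 3.28, adjusted p = 0.0650). Neither gene had overlapping groups, and the 2 were at their highest in array 3 of both organs.

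Cox6a2, the muscle-type subunit of cytochrome c oxidase that plasmacytoid DCs also express, stood apart mainly in 1 array. It read 6.80, 6.75 and 8.74 in spleen arrays, against 6.23, 6.21 and 6.71 in lymph node arrays (probe set 1417607_at, difference 1.05, 95% interval -0.12 to 2.22, adjusted p = 0.317). Without spleen array 3 its difference was 0.39. Ly6d, a surface protein of early B-lineage and plasmacytoid DC precursors, varied little, with 4.85, 4.81 and 5.20 in spleen arrays, against 4.54, 4.22 and 4.64 in lymph node arrays (probe set 1416930_at, difference 0.48, 95% interval 0.04 to 0.92, adjusted p = 0.221).

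Pld4, an endosomal exonuclease that degrades single-stranded nucleic acids and is also found in B cells and macrophages, ran the other way. It read 8.34, 8.88 and 9.48 in spleen arrays, against 9.48, 9.79 and 9.40 in lymph node arrays (probe set 1433678_at). Only spleen array 3 reached the lymph node range, and the difference of -0.66 (95% interval -1.33 to 0.01) did not pass (adjusted p = 0.273).

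**Figure D2:**
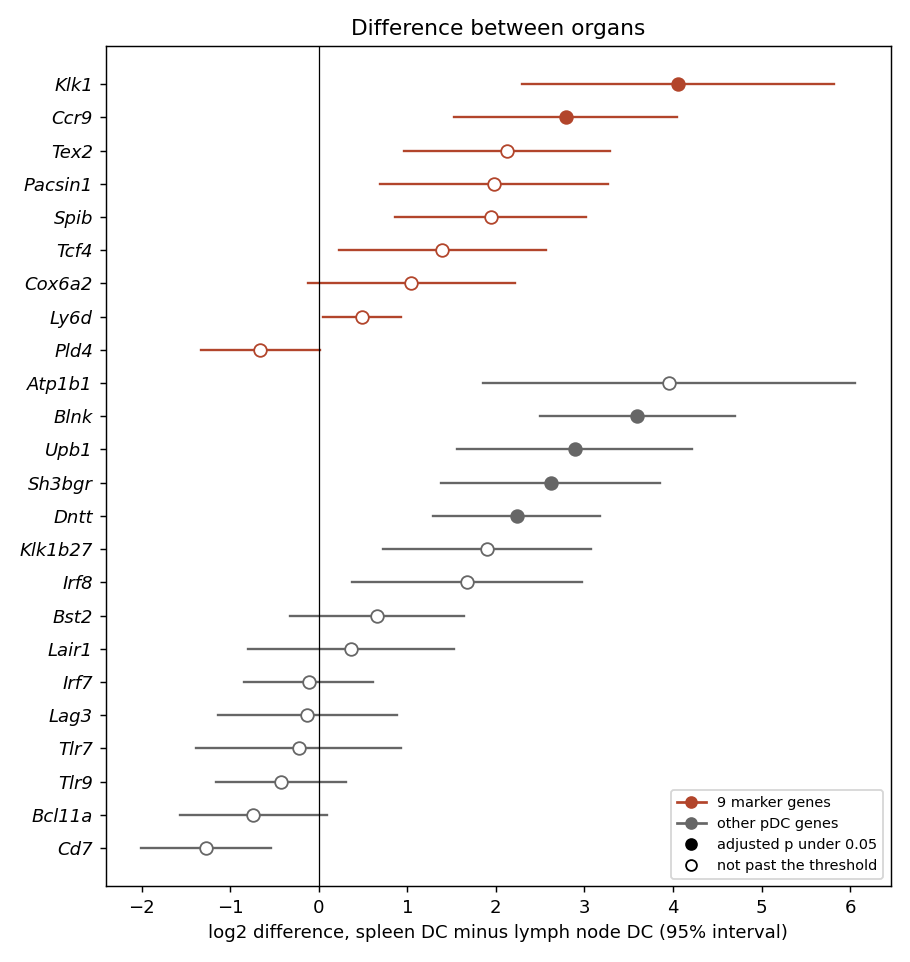
Log2 difference, spleen minus lymph node as labelled, with its 95% interval from limma, for the 9 marker genes (red) and 15 other genes of plasmacytoid DCs (grey). Filled points passed an adjusted p of 0.05, which were Klk1 and Ccr9 among the first set and Blnk, Upb1, Sh3bgr and Dntt among the second.

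The second question was how the 9 genes vary together among arrays of the same organ. In spleen arrays, array 3 was the highest for 9 of 9 genes, and its deviation from the group mean was 0.25 to 1.43 log2 units with a median of 0.99. In lymph node arrays, array 3 was the highest for 8 of 9 genes, all but Pld4, with deviations of -0.16 to 1.49 and a median of 0.75. Among all genes, array 3 was the highest of its group for 41.0% in spleen and 37.3% in lymph node, and for 17.3% in both. The median deviation over all genes was 0.042 in spleen array 3 and 0.004 in lymph node array 3.

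**Figure D3:**
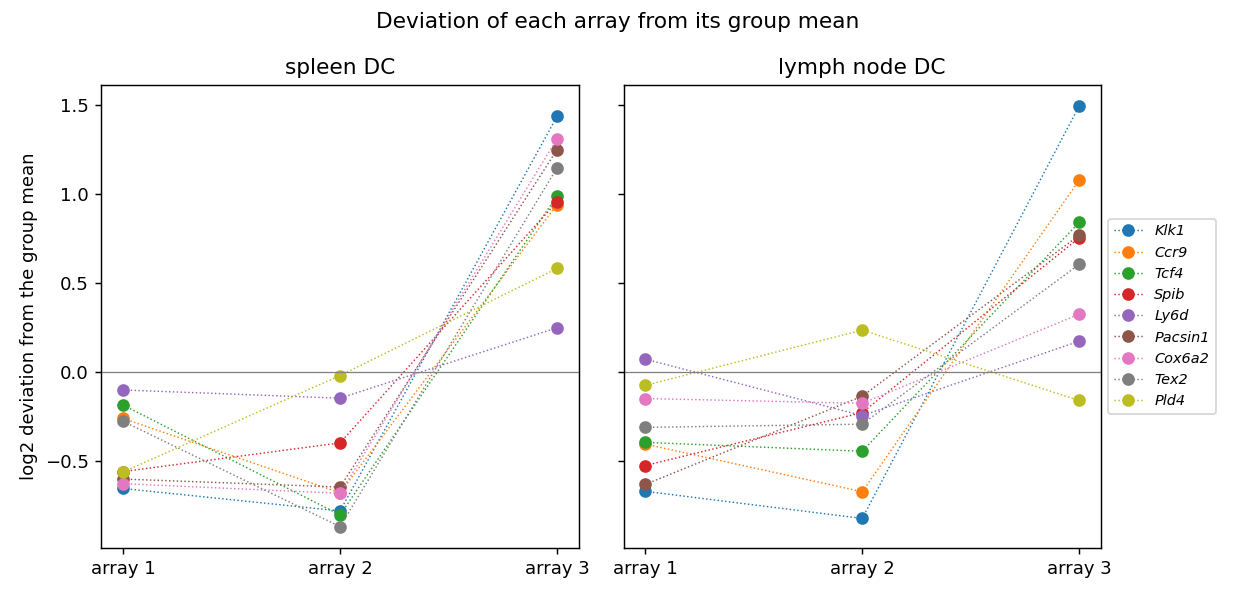
Deviation of each array from its group mean (log2 units) for the 9 genes, with dotted lines joining the values of a gene as a guide only, since arrays of a group have no order. In spleen, arrays 1 and 2 are below 0 for all 9 genes and array 3 is above 0 for all 9. In lymph node array 3 is above 0 for 8.

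Set against the mean of arrays 1 and 2 of its organ, Klk1 was higher by 2.15 in spleen array 3 and by 2.24 in lymph node array 3. The same contrast was 1.41 and 1.61 for Ccr9, 1.48 and 1.26 for Tcf4, 1.43 and 1.13 for Spib, and 1.87 and 1.15 for Pacsin1. These 5 genes were at or above percentile 98.6 of all genes in both organs. A contrast of at least 1 log2 unit in both organs was seen for 5 of the 9 genes and for 55 of all genes (0.444%). Tex2 (1.72 and 0.91) and Cox6a2 (1.96 and 0.49) had the larger value in spleen. Ly6d (0.37 and 0.26) lay at percentiles 77.3 and 78.9 of all genes, and Pld4 (0.87 and -0.24) at percentiles 95.2 in spleen and 22.6 in lymph node. With 3 arrays per group these are descriptions without a test.

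**Figure D4:**
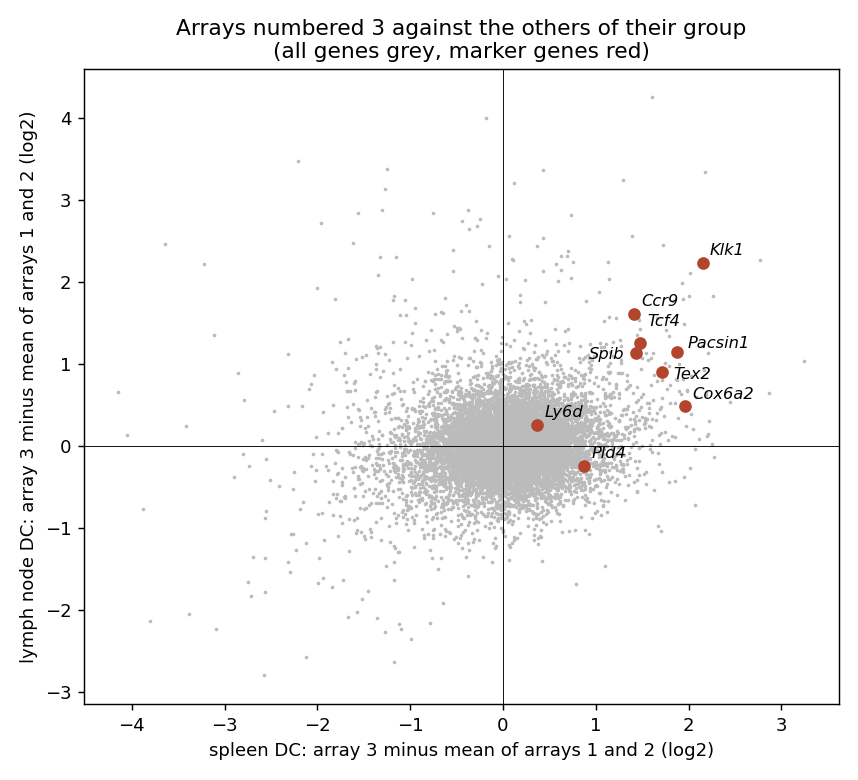
Array 3 minus the mean of arrays 1 and 2 (log2 units) in spleen (x axis) and lymph node (y axis) for all 12394 genes (grey) and the 9 marker genes (red). Klk1, Ccr9, Tcf4, Spib and Pacsin1 lie beyond 1 on both axes, while Ly6d lies among the bulk of genes on both axes and Pld4 only on the lymph node axis.

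A fit with both arrays numbered 3 left out, chosen after seeing the data, held only the arrays numbered 1 and 2 of each organ. The arrays numbered 3 were left out because most of the 9 genes stood apart in them. The smaller spread of most of the 9 genes within groups follows from that choice, and the calls cannot be read apart from it. In that fit 5 of the 9 genes were called higher, beside 2.57% of all genes called higher and 3.86% called in either direction. They were Klk1 (17.0-fold, adjusted p = 0.00496), Ccr9 (7.26-fold, 0.00887), Spib (3.58-fold, 0.0168), Pacsin1 (3.33-fold, 0.0220) and Tex2 (3.61-fold, 0.0229). Tcf4 was at 1.32 ± 0.25 (SE, adjusted p = 0.0546) and Pld4 at -1.03 ± 0.25 (adjusted p = 0.0926). The median of the 9 differences was 1.73. Cox6a2 had a difference of 0.56 without the arrays numbered 3, against 1.05 with them. Pld4 had -1.03 without them and -0.66 with them, Ly6d 0.45 and 0.48, and Klk1 4.09 and 4.06.

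The profiles of the 9 genes over the 6 arrays, each centred on its own mean, were compared by root-mean-square distance in log2 units. Spib and Pacsin1 were the closest pair, 0.168 apart, and Pacsin1 and Tex2 were 0.242 apart. Klk1 was 1.28 from the mean profile of the 9 genes because its changes were larger, and Pld4 was 1.27 from it because it ran against the others between organs. Outside the list, the genes nearest to the mean profile were Csf2rb2 (0.129), a subunit of the IL-3 receptor, then Nucb2 (0.190), the Src-family kinase gene Fyn (0.196), Asph (0.212) and Maged1 (0.224). Csf2rb2 read 9.56, 9.38 and 10.74 in spleen arrays, against 7.84, 7.61 and 8.74 in lymph node arrays.

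For single genes the nearest were Sdc1 (0.264) and Cd8b1 (0.343) to Klk1, Upb1 (0.154) and Klra17 (0.307) to Ccr9, Ralgps2 (0.177) and Myo10 (0.210) to Tcf4, and Myzap (0.162) and Csf2rb2 (0.204) to Spib. Klra17 encodes Ly49Q, a lectin-like receptor of plasmacytoid DCs, and read 8.67, 7.72 and 9.85 in spleen arrays, against 5.48, 5.94 and 7.28 in lymph node arrays. How close the nearest profiles of other genes lie was not examined, so these distances are a description only.

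A list of 20 other genes of plasmacytoid DCs, of which 15 were measured, was examined beside the 9. Siglech, the lectin gene commonly used for these cells, was not analysed here. Of these, 4 were higher in spleen arrays and 0 lower, beside 2.03% of all genes called higher and 3.4% called in either direction, and the median difference was 0.66. Blnk, an adaptor of B cell receptor signalling, read 6.32, 5.85 and 7.58 in spleen arrays, against 2.54, 2.72 and 3.70 in lymph node arrays (12.1-fold, adjusted p = 0.0119, with the lymph node values near the bottom of the scale). Upb1, an enzyme of pyrimidine breakdown, read 6.74, 6.33 and 8.29 in spleen arrays, against 3.99, 3.52 and 5.17 in lymph node arrays (7.42-fold, adjusted p = 0.0402). Sh3bgr was 6.13-fold higher (adjusted p = 0.0439), and Dntt, the terminal transferase of antigen receptor gene assembly, was 4.71-fold higher (adjusted p = 0.0331). This list too was chosen with earlier results known, so its count beside all genes is no test of an excess.

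Among the 11 others, the 4 largest differences belonged to Atp1b1, Klk1b27, Irf8 and Cd7. Atp1b1, a sodium pump subunit, read 11.07, 10.18 and 11.91 in spleen arrays, against 5.40, 6.63 and 9.26 in lymph node arrays (adjusted p = 0.0602). Irf8, a transcription factor shared by plasmacytoid DCs and the CD8 lineage of conventional DCs, read 8.84, 10.02 and 10.69 in spleen arrays, against 7.14, 8.62 and 8.78 in lymph node arrays (adjusted p = 0.156). Cd7 was at 6.62, 6.14 and 7.41 in spleen arrays, against 7.91, 8.25 and 7.84 in lymph node arrays (difference -1.27, adjusted p = 0.0730).

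Spleen array 3 was the highest spleen array for 15 of 15 of these genes too, whichever way they differed between the organs. Among them were Tlr7 (7.18, 7.29 and 8.94 in spleen arrays, against 8.43, 8.32 and 7.34 in lymph node arrays), the endosomal sensor of single-stranded RNA, and Bst2 (6.09, 6.77 and 7.90 in spleen arrays, against 5.99, 6.24 and 6.56 in lymph node arrays), a surface antigen used to stain plasmacytoid DCs. Bcl11a, a factor that sustains Tcf4 expression, read 8.20, 8.23 and 9.58 in spleen arrays, against 9.44, 9.49 and 9.31 in lymph node arrays. Lymph node array 3 was the highest lymph node array for 7 of the 15, and the median contrast of array 3 against arrays 1 and 2 was 1.47 in spleen and 0.12 in lymph node. Tlr7, Bst2 and Bcl11a were chosen after their values were seen. Without both arrays numbered 3, 5 of the 15 were higher in spleen arrays (Blnk, Upb1, Sh3bgr, Dntt and Atp1b1) and 3 lower, namely Cd7 (-1.69, adjusted p = 0.0283), Bcl11a (-1.25, 0.0249) and Tlr7 (-1.14, 0.0330). In that fit 2.57% of all genes were called higher and 3.86% in either direction. The fit was chosen after the data were seen. Since spleen array 3 was the highest for 15 of 15, leaving it out lowers every spleen mean of this list. The 3 lower calls cannot be read apart from that choice.

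Partners and inhibitors of the Tcf4 product showed no common direction. Of 14 measured, 1 was higher and 0 were lower, beside 2.03% and 1.37% of all genes. The median difference was 0.004. The gene called was Tcf12, a related E protein, with 8.34, 7.81 and 8.38 in spleen arrays, against 6.82, 6.55 and 7.03 in lymph node arrays (2.60-fold, adjusted p = 0.0214). The 4 next largest were Irf8, Spi1 (-1.37, adjusted p = 0.0549), which encodes the Ets factor PU.1, Zeb2 (1.06, adjusted p = 0.0732) and Ikzf1 (-1.05, adjusted p = 0.0660). Id2, the inhibitor of E proteins that is high in conventional DCs, was chosen after its values were seen. It read 9.26, 9.41 and 8.71 in spleen arrays, against 7.85, 8.46 and 8.71 in lymph node arrays (adjusted p = 0.177).

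The endosomal Toll-like receptor and interferon pathway, through which plasmacytoid DCs respond to nucleic acids, had 0 of 18 measured members past the threshold in limma, 6 with an unadjusted p under 0.05, and a median difference of 0.043. Beside this, 3.4% of all genes were past the threshold, and the share with an unadjusted p under 0.05 was not counted. The largest differences were negative. Cnpy3, a chaperone of Toll-like receptors, was at 5.61, 5.95 and 6.42 in spleen arrays, against 7.32, 7.58 and 6.73 in lymph node arrays (adjusted p = 0.0630). Unc93b1, which carries these receptors to endosomes, differed by -1.16 (adjusted p = 0.0920), the adaptor Myd88 by -0.89 (0.157) and the endosomal transporter Slc15a4 by -0.64 (0.158). Unc93b1 and Cnpy3 were past the threshold, lower in spleen arrays, without both arrays numbered 3 (adjusted p = 0.0305 and 0.0207). That fit was chosen after the data were seen. Interferon genes Ifnb1, Ifna4 and Ifna2 stayed at 1.54 to 2.77 on all arrays, at the bottom of the scale.

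Paralogs of the 9 genes were set beside them, since probe sets of close paralogs may share signal. Their levels cannot show whether signal was shared, and sequence identity was not computed. Of 18 measured, 2 were higher, Tcf12 and Ccr7, and 0 lower, beside 2.03% and 1.37% of all genes. The median difference was -0.008. Besides Klk1b27, the largest differences that did not pass were those of Spi1, Pld2 (-0.69, adjusted p = 0.152) and Spic (-0.63, adjusted p = 0.497). Cox6a1, the widely expressed counterpart of Cox6a2, read 9.87, 9.91 and 9.94 in spleen arrays, against 10.28, 10.47 and 9.79 in lymph node arrays, and was chosen after its values were seen.

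Markers of other cell types were set beside these results, each list summed as the log2 of its mean intensity per array. Over all genes 2.03% were called higher and 1.37% lower, and the share at an unadjusted p under 0.05 was not counted. The summed level of the 9 genes was 8.21, 7.96 and 9.61 in spleen arrays and 7.20, 7.37 and 7.80 in lymph node arrays. Bright genes weigh most in such a mean. Pld4, the brightest of the 9 in lymph node arrays, read 716.3, 887.7 and 675 units there, against 14.0, 12.6 and 62.7 for Klk1. The summed level therefore need not follow the fainter genes. B cell markers had 0 of 10 higher and 2 lower (Cd22, -2.13, and Cr2, -1.60). Their median difference was -0.123, and 3 had a positive difference. Their summed level ranged from 4.59 to 4.89 in spleen arrays and 5.48 to 5.97 in lymph node arrays. Cd22, the brightest of them in lymph node arrays (8.51, 8.50 and 7.32), weighs most there. The defining B cell gene Cd79a was at 4.41, 4.10 and 3.68 in spleen arrays, against 3.69, 4.29 and 4.59 in lymph node arrays, lowest in array 3 of the spleen arrays and highest in array 3 of the lymph node arrays. Cd79a was chosen after its values were seen. The naming rule takes Cd79b and Vpreb3 instead. Cd79b read 5.98, 5.49 and 5.68 in spleen arrays, against 4.58, 5.26 and 5.49 in lymph node arrays. Its difference was positive (0.61, adjusted p = 0.265), and that of Vpreb3 was -0.105 (adjusted p = 0.881). Over the B cell list, array 3 was the highest spleen array for 2 of 10 markers, Pax5 and Fcer2a, unlike for Cd79a. Array 3 was the highest lymph node array for 7 of 10. The median contrast to arrays 1 and 2 was -0.11 in spleen and 0.44 in lymph node. Plasma cell markers had 1 of 6 higher, Sdc1 (6.26, 5.40 and 8.09 in spleen arrays, against 2.10, 2.00 and 3.88 in lymph node arrays), and ranged from 6.52 to 7.43 in spleen arrays and from 7.06 to 7.39 in lymph node arrays.

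T cell markers had 1 of 11 higher (Cd28), beside 2.03% of all genes called higher. They ranged from 5.86 to 6.86 in spleen arrays and 5.34 to 6.0 in lymph node arrays. NK cell markers, with 0 of 10 past the threshold in limma and 2 at an unadjusted p under 0.05, ranged from 6.09 to 7.68 in spleen arrays and 5.69 to 6.83 in lymph node arrays. Both lists were highest in spleen array 1. Array 3 was the highest spleen array for 2 of 11 T cell markers and 2 of 10 NK cell markers. In lymph node, however, array 3 was the highest for 7 of 10 B cell, 7 of 11 T cell, 7 of 10 NK cell and 7 of 9 macrophage markers as well as for 8 of the 9 genes. The part of these cell types in the pattern of either organ was not tested.

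Conventional DC markers had 1 of 9 higher, Ccr7, and 2 lower, Itgax (-0.97, adjusted p = 0.0310) and Ciita (-1.45, adjusted p = 0.0196), and a median difference of -0.54. Their summed level was 10.59, 11.10 and 10.72 in spleen arrays and 11.37, 11.37 and 11.26 in lymph node arrays. Markers of the CD8 lineage (cDC1) had 0 of 8 past the threshold in limma, 7 at an unadjusted p under 0.05, and a median of 1.16. Not all of those under 0.05 were higher in spleen arrays, since Batf3 among them was lower (-1.05, adjusted p = 0.0920). Neutrophil markers had 1 of 8 lower, Camp (-1.37), and macrophage markers 0 of 9 past the threshold, with 2 at an unadjusted p under 0.05. Beside these counts, 3.4% of all genes were called, 2.03% higher and 1.37% lower. How many of all genes had an unadjusted p under 0.05 was not counted.

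Technical controls also differed between the organs. The 24 probe sets of the bacterial poly-A spikes averaged 9.02, 8.41 and 9.06 log2 units in spleen arrays, against 7.39, 7.80 and 7.96 in lymph node arrays (two-sided exact permutation p = 0.1, the smallest that 3 against 3 arrays allow). The 3′ control probe set of Gapdh exceeded its 5′ probe set by 3.44, 3.25 and 3.14 log2 units in spleen arrays, against 2.60, 2.70 and 2.79 in lymph node arrays. Both separated the organs without overlap, so their part and that of the organ in the differences of the 9 genes cannot be told apart. Array 3 had the highest poly-A level of its group in both organs, and spleen array 2 the lowest of the spleen arrays, where the mean log2 level of the 9 genes was lowest too (7.58, 7.45 and 8.99 in spleen arrays, and 5.98, 6.01 and 6.97 in lymph node arrays). The sizes did not match the ranks throughout. Spleen arrays 1 and 3 had poly-A levels of 9.02 and 9.06, with mean levels of the 9 genes of 7.58 and 8.99. The part of the poly-A level in the variation within groups was not tested.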

How the data were processed

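Per the labels' protocols, RNA isolated with TRIzol was cleaned on columns with carrier RNA and amplified to biotinylated cDNA for Affymetrix arrays. The deposited intensity values are probe set summaries on a linear scale. The submitters' processing notes name RMA and limma, whose versions are not given in the sources used here. Since RMA output is on the log2 scale, values were brought back to the linear scale, and any other step is unknown. No detection calls were used, and the number of arrays limits the precision.

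The table held 22690 probe sets, of which 20393 had 1 gene symbol in the array annotation, 691 several and 1606 none. The 9 symbols were the same by Entrez identifier in RefSeq (GRCm38.p6). A gene with several probe sets was read from the brightest by mean log2 value. Groups came from the sample titles. The comparison of log2 values used limma 3.58.1 under R 4.3.3 (two-sided lmFit and eBayes, Benjamini-Hochberg over all 12394 genes, threshold 0.05, no filter on level). Single control levels were compared by exact permutation.

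The members and lists were chosen with earlier results of these data known. The naming rule takes all 9 genes, list members past the threshold, then the 4 largest differences (pathway lists) or the 2 brightest markers (cell type lists), and the nearest profiles. Some of these are given only as counts. Alternatives were other scalings, a level filter, trend and robust eBayes, array weights, a replicate block, an offset of 16, averaged probe sets, a threshold of 0.01, each array left out and, added later, both arrays numbered 3 left out. In simulated data for this comparison (12394 genes, 200 changed) 38%, 86%, 96% and 98% of changes of 1, 2, 3 and 4 log2 units were recovered, and 4.22% of calls were unchanged genes. The recovered shares need not hold for genes that vary more within groups than the simulated ones, which was not examined. Spib, Pacsin1 and Tex2, with differences of 1.94, 1.97 and 2.12, were not called. Protein sequences were not used here.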

Additional observations from a re-analysis of the deposited data

How the results depend on the processing

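None of the 142 results of single genes under the alternatives changed sign. In 119 the side of the threshold was kept, in 11 a call was lost and in 12 one was gained. The 2 calls on the 9 genes became 4 with the filter at the median level and with array weights, 5 without both arrays numbered 3, and 0 with the offset of 16 and at a threshold of 0.01. With 1 array left out they ranged from 0 to 3, and the median difference of the 9 genes from 1.35 to 2.32. Over all genes the count of 421 became 764 with array weights, 576 with trend and robust eBayes, 544 with the filter and 63 at the threshold of 0.01. It ranged from 47 to 475 with 1 array left out. The filter kept only genes above the median level, so its calls come from fewer genes. Ly6d and Pacsin1 were not in that fit. The 4 calls on other plasmacytoid DC genes became 1 with the offset of 16, 0 at the threshold of 0.01 and 8 without both arrays numbered 3 (0 to 5 with 1 array left out). For Tcf4 partners and inhibitors the single call became 2 with a second quantile normalization, 4 with the filter or with trend and robust eBayes, 3 with array weights, 0 at the threshold of 0.01 and 2 without both arrays numbered 3 (0 to 2 with 1 array left out). For the endosomal receptor pathway the count of 0 became 1 with the filter, with trend and robust eBayes or with averaged probe sets, 2 with array weights and 3 without both arrays numbered 3 (0 to 2 with 1 array left out). The cause was not tested.

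Arrays of the 2 organs share the numbers 1 to 3, and nothing says what a shared number means. Deviations from the group means correlated across genes at 0.022, 0.242 and 0.158 for arrays numbered 1, 2 and 3, so the numbers were not taken as pairs, and not every array correlated best with its own number. With the replicate block 6 of the 9 genes, 4 Tcf4 partners and inhibitors and 518 genes in all were called. Values near the bottom of the scale, as those of Klk1, Pacsin1 and Blnk in lymph node arrays, limit the size of a fold.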
